A study of Mus musculus with 10 samples.

Results

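Cultured peritoneal macrophages from mice without the scavenger receptor CD163 were compared with macrophages from wild-type mice, across all genes of the 4 macrophage libraries among the 10 libraries of the series. Both genotypes were male, and the Cd163-/- animals (C57BL/6 background) and the wild-type animals were littermates. The cells were drawn from the peritoneal cavity after an injection of thioglycolate, an irritant that recruits macrophages, kept by their adherence to plastic, and held for 48 h with the synthetic glucocorticoid dexamethasone at 100 nM. Every library therefore carries the dexamethasone treatment, and no untreated macrophage library was analysed here. The groups are wild type (2 libraries) and Cd163-/- (2 libraries, called knockout below). The labels do not say which part of Cd163 was removed, how many animals went into a library or whether library 1 and library 2 of a genotype are separate animals or cultures. A p-value here therefore measures the spread among these libraries alone, and that spread may be technical. The other 6 libraries are Cd163-/- hearts and serve below only as a reference for markers of stromal cells.

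CD163 sits on macrophages, takes up complexes of haptoglobin with haemoglobin, and is itself induced by glucocorticoids. Glucocorticoids act through the glucocorticoid receptor, which switches on genes such as Fkbp5 and Tsc22d3 and holds down inflammatory genes driven by the transcription factors NF-kappaB and AP-1. Elicited macrophages are plastic cells: on activation they change their surface receptors, turn to glycolysis, import arginine and cystine and make itaconate and prostaglandins, and cells that clear debris instead carry scavenger and apoptotic-cell receptors. Cultures selected by adherence can also hold mesothelial cells, fibroblasts and smooth-muscle-like cells of the peritoneal wall.

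Total counts were 17.9 and 16.7 M in the wild-type libraries and 18.6 and 17.2 M in the knockout libraries (M for mega), and mitochondrially encoded genes held 2.43% to 3.12% of them. The unit of level is CPM, a count scaled to a library of 1 M after TMM (trimmed mean of M-values) normalisation, always in the order library 1 and library 2 of a genotype. A floor of 3 counts lies at 0.149 to 0.191 CPM. Log2 CPM of the 13861 genes tested below correlated at 0.983 between the wild-type libraries and 0.987 between the knockout libraries. Between the groups it correlated at 0.911 to 0.938, which is a description across genes. Defining macrophage genes were abundant in every library: Lyz2 (lysozyme) was at 23076 and 18979 CPM in the wild-type libraries and 16827 and 17033 in the knockout libraries, and Cd68 at 2001 and 1753 and 1769 and 2404.

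Cd163, on chromosome 6 (124304656 to 124330527, GRCm38), was read first because it is the targeted gene. It had 352 and 205 counts in the wild-type libraries and 9 and 14 in the knockout libraries, or 20.9 and 13.03 against 0.448 and 0.778 CPM. Both knockout libraries lie below both wild-type libraries, as their labels say. The fold change of knockout over wild type was -4.79 on the log2 scale (SE 0.39; adjusted p, Benjamini-Hochberg, from the edgeR quasi-likelihood test = 0.0013). The residual counts could not be placed inside or outside the deleted part.

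Of 13861 genes tested, 1817 were higher and 1846 lower in the knockout libraries at an adjusted p under 0.05 (edgeR quasi-likelihood test), that is 26.4% of tested genes in either direction, 13.1% that rose and 13.3% that fell. Changes past 3 on the log2 scale were called for 197 genes that fell and 123 that rose. The split depends on the scaling: with library size alone 2665 genes rose and 1220 fell, and with upper-quartile scaling 2310 rose and 1403 fell. Library size alone moved the median log2 fold change of all genes from 0.012 to 0.188. The count also leans on the knockout libraries more than on the wild-type ones. Only a minority of the calls was made without each of the 4 libraries in turn. With a knockout library left out, the spread within a genotype is measured in the wild-type pair alone, which differed more than the knockout pair. Whether a lost call comes from that spread or from the values of the library left out was not tested. Without knockout library 1 the test called 360 rises and 374 falls.

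**Figure D1:**
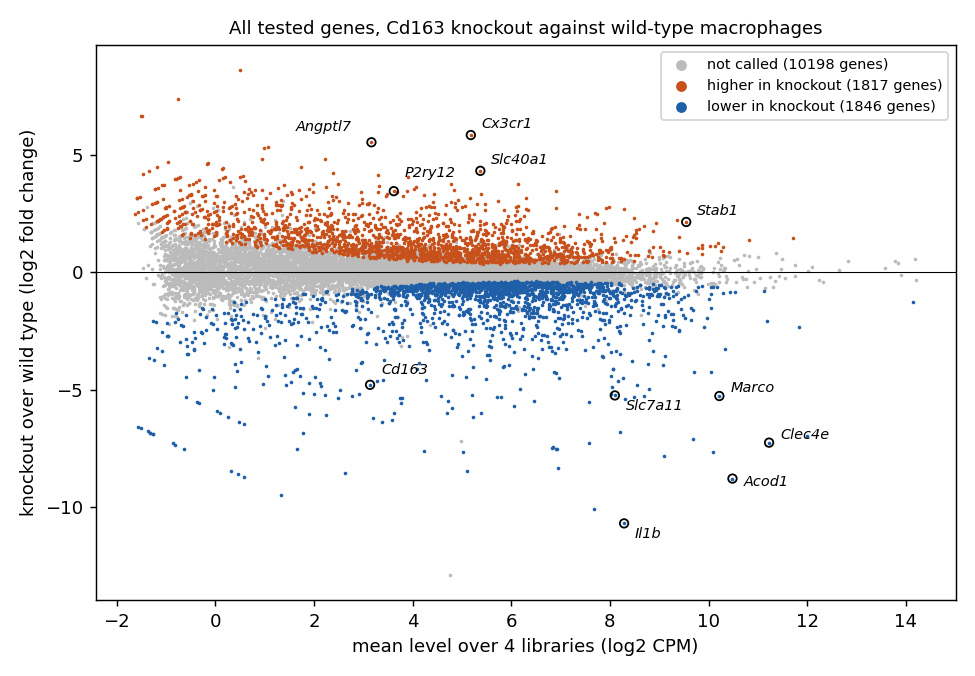
Each point is 1 of 13861 tested genes, with its mean level over the 4 libraries (log2 CPM) on the horizontal axis and the log2 fold change of knockout over wild type on the vertical axis. Orange marks 1817 genes called higher and blue 1846 called lower. The circled falls are Il1b (log2 -10.70), Acod1 (-8.79), Clec4e (-7.26), Marco, Slc7a11 and Cd163 (-4.79). The circled rises are Cx3cr1 (5.86), Angptl7 (5.55), Slc40a1, P2ry12 and Stab1 (2.15). Chp2, a larger rise (8.64), is not circled.

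The largest rises were a mixed group of receptors, transporters and matrix genes. Cx3cr1, the receptor for fractalkine, was at 1.9 and 0.508 CPM in the wild-type libraries and 90.3 and 52.2 in the knockout libraries (log2 5.86, SE 0.52, edgeR adjusted p = 0.00175). The wild-type libraries were both below every knockout library by more than their own spread. Angptl7, a secreted angiopoietin-like protein, was at 0.475 and 0.254 against 20.1 and 15 CPM (log2 5.55, SE 0.34, edgeR adjusted p = 0.000723). Slco2b1, an organic anion transporter, rose from 0.416 and 0.191 to 10.96 and 7.06 CPM (log2 4.85), and the monooxygenase gene Fmo2 from 0.238 and 0.318 to 6.33 and 6.5 (log2 4.50). The long non-coding RNA H19 stood at 0.416 and 0.636 against 6.88 and 13 CPM (log2 4.23). Some rises start from almost nothing. Chp2, a regulator of sodium-proton exchange, had 0 counts in both wild-type libraries and 106 in the knockout libraries together, at least 30.2-fold higher against a floor of 3 counts over the group. Cxcr3, a receptor for interferon-induced chemokines, had 3 counts in the wild type against 154 (ratio 43.9, 95% counting interval 14.8 to 215), and Gpr34, a lysophosphatidylserine receptor, 3 against 149 (ratio 42.5, 14.3 to 208). These intervals cover counting error only.

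Other large rises were uneven between the libraries of a genotype or lost their calls when a library was left out. Col8a1, a collagen chain, was at 0.951 and 1.14 CPM in the wild-type libraries and 31.6 and 5.89 in the knockout libraries (log2 4.16), and Adcyap1r1, a neuropeptide receptor, at 2.08 and 1.27 against 41.1 and 15.4 (log2 4.07). In both genes knockout library 1 is far above knockout library 2. Slc40a1, which encodes the iron exporter ferroportin, was at 6.65 and 1.08 CPM in the wild-type libraries and 88.7 and 69.2 in the knockout libraries (log2 4.33), and its call was lost without knockout library 1 (edgeR adjusted p = 0.065). The same held for Mn1, a transcriptional regulator at 0.0594 and 0.254 against 3.34 and 2.28 CPM (adjusted p = 0.065 in edgeR without that library). Trav13-4-dv7 (a T cell receptor segment) and Sfrp1 (a secreted Wnt inhibitor) lost their calls without either knockout library, with edgeR adjusted p = 0.094 and 0.179 without knockout library 1 and 0.055 and 0.0568 without knockout library 2. Their counts were low, 2.44 and 1.78 and 3.99 and 1.39 CPM in the knockout libraries.

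The largest falls were inflammatory mediators and the enzyme and receptors that accompany them. Acod1, which makes itaconate from an intermediate of the citric acid cycle, was at 2067 and 3644 CPM in the wild-type libraries and 3.04 and 9.95 in the knockout libraries (log2 -8.79, SE 0.72, edgeR adjusted p = 0.00134). Hcar2, the receptor for nicotinic acid and ketone bodies, was at 48.96 and 80.8 against 0.249 and 0.389 CPM (log2 -7.65, SE 0.40, edgeR adjusted p = 0.000479). Lack of overlap between genotypes was a condition for naming the largest changes. In both genes the wild-type libraries differed from each other by much less than from the knockout. The cytokines on the list were Il1b, Il12b, Csf3 and Tnf, with log2 fold changes of -10.70, -10.08, -8.48 and -7.64, and the chemokines Cxcl5, Cxcl2 and Cxcl10, with -8.32, -7.81 and -7.52. Il12a had 97 counts in the wild type and 0 in the knockout, at least 37.8-fold lower. Cxcl3 had 403 against 1 (ratio 471, 95% counting interval 84.1 to 18654) and Sprr2e, a cornified-envelope protein, 202 against 1 (ratio 236, 41.9 to 9373). Csf2 had 82 against 0 counts, at least 32.0-fold lower, and lost its call without knockout library 1 (edgeR adjusted p = 0.0567). The wild-type libraries were far apart in the remaining falls, Serpina3f at 5.64 and 69.5 and Lcn2 (lipocalin, which binds bacterial iron carriers) at 43.9 and 433 CPM. Both lost their calls without knockout library 1 (edgeR adjusted p = 0.149 and 0.106) or knockout library 2 (0.113 and 0.0825).

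Upstream sequences are shown for 5 genes taken from the receptor, transcription factor and redox groups described below, chosen after their values were seen. Only sequences that hold a match to the NF-kappaB motif are shown. They are the 250 bases before the RefSeq start of each gene (GRCm38.p6), read 5′ to 3′ on the gene's strand, with matches to the NF-kappaB motif (kappaB) in capitals. The first 4 genes fell and P2ry12 rose.
Ccrl2 (chr9:111057519-111057768, minus strand): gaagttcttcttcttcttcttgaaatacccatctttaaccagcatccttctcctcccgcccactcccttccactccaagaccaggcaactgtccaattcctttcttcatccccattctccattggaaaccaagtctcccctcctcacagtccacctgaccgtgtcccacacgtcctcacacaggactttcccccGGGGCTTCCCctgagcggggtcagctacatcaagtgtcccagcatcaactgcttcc
Tlr2 (chr3:83841609-83841858, minus strand): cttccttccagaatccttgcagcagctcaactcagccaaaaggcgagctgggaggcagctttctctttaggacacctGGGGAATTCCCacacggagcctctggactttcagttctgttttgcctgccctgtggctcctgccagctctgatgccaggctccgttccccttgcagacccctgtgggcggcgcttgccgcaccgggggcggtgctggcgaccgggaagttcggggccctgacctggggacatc
Irf1 (chr11:53769764-53770013, plus strand): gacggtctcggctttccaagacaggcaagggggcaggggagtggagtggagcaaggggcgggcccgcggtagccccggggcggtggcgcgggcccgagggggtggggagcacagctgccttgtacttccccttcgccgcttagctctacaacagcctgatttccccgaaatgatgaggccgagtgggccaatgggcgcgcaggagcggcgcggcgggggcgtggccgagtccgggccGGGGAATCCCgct
Sod2 (chr17:13007589-13007838, plus strand): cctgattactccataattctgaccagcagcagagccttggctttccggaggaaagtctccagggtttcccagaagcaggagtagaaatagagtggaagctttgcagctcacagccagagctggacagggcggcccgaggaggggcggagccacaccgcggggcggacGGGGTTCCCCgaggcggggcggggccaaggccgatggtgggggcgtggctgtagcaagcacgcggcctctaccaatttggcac
P2ry12 (chr3:59262986-59263235, minus strand): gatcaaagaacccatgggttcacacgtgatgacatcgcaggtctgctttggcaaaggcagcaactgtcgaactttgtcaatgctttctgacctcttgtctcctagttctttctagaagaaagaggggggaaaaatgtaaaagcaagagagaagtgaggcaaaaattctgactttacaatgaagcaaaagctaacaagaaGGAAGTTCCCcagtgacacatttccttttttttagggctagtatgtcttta

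Ccrl2, an atypical receptor that holds chemerin at the surface, has a kappaB match 56 to 47 bases upstream, Irf1 one 13 to 4 bases upstream and Sod2 one 83 to 74 bases upstream. In Tlr2 a pair of overlapping matches runs from 173 to 163 bases upstream. P2ry12, which rose, has a match as well, at 51 to 42 bases. Because only sequences with a match are shown, these 5 genes cannot tell whether a match goes with a direction. Over all 32851 RefSeq promoter windows (250 bases before to 50 after the start), 8.46% held the kappaB motif on either strand. The share was 10.5% in windows of tested genes (12980 windows), 10.5% for genes that rose (1825 windows), 13.9% for genes that fell (1788 windows) and 23.1% for genes that fell by over 3 on the log2 scale (36 of 156 windows). For rises past 3 it was 8.82% (9 of 102). The AP-1 motif TGANTCA stood in 18.6% of the windows of the deepest falls, in 5.88% of those of the largest rises, in 5.35% of those of tested genes and in 7.81% of all. Over every called gene the AP-1 shares were close, 6.85% for genes that rose and 6.71% for genes that fell. The cyclic-AMP response element TGACGTCA was in 0.641% of the windows of the deepest falls (1 of 156) and 1.96% of those of the largest rises (2 of 102), against 2.96% of tested genes, 1.53% for genes that rose and 2.74% for genes that fell. A full glucocorticoid response element (its palindromic consensus, with no mismatch allowed) was in 3 of the 32851 windows. These shares are descriptions: windows of 1 gene with several starts overlap, and a match is not a bound site.

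Surface receptors changed in both directions. Of 271 tested members of 10 receptor lists, 67 rose (24.7%) and 91 fell (33.6%), against 13.1% and 13.3% of all tested genes, and 26 of the rises and 41 of the falls were called without each library in turn, which is written below as "held". Their median log2 fold change was -0.15 (all tested genes 0.012), and with library size alone it was 0.020, with 80 rises and 82 falls. With 1 library left out, 31 to 82 rose and 41 to 109 fell, the fewest in both directions without knockout library 1. List medians ran from -0.59 for pattern recognition receptors and -0.56 for antigen presentation and costimulation to 0.72 for apoptotic-cell receptors and 1.94 for chemokine receptors, with the same sign under each scaling tried. Genes named below were mostly picked by their call or small p, so a lack of overlap between genotypes only describes them. The share of all tested genes without overlap is not given here.

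Scavenger receptors split. Of 18 tested, 4 rose and 6 fell, of which 1 and 4 held. Marco, a collagen-like receptor for bacteria and particles, was at 1791 and 2850.3 CPM in the wild-type libraries and 69.8 and 50.6 in the knockout libraries (log2 -5.27, SE 0.34, edgeR adjusted p = 0.000785). Olr1, the receptor for oxidised LDL, was at 30.5 and 24.2 against 4.13 and 1.95 CPM (log2 -3.16, SE 0.34, edgeR adjusted p = 0.00321), and Scarf1, which binds modified lipoproteins, at 70.6 and 88.8 against 26.6 and 32.3 (log2 -1.44). All 3 were lower in both knockout libraries. Stab1 (stabilin-1), a receptor of alternatively activated macrophages, moved the other way, from 351 and 198 to 1061 and 1378 CPM (log2 2.15, SE 0.31, edgeR adjusted p = 0.00706). Mrc1, the mannose receptor CD206, rose from 269 and 158 to 772 and 676 CPM (log2 1.76), a call lost without knockout library 1 (edgeR adjusted p = 0.0733).

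Of 22 C-type lectins and Siglecs, 4 rose and 7 fell, of which 0 and 2 held. Clec4e (Mincle, the receptor for mycobacterial cord factor), on the same chromosome as Cd163 (chr6:123281789-123289870), was at 4369 and 5145 CPM in the wild-type libraries and 22.7 and 39.6 in the knockout libraries (log2 -7.26, SE 0.40, edgeR adjusted p = 0.000562). The wild-type libraries lie close together and far above both knockout libraries. Clec5a, an activating lectin, was at 206 and 143 against 28.6 and 26.1 CPM (log2 -2.67, SE 0.20). Of the rises, Clec10a, a galactose-binding lectin, went from 2.08 and 0.508 to 9.62 and 18.9 CPM (log2 3.44) and lost its call without knockout library 2 (edgeR adjusted p = 0.0703).

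Among Fc receptors and receptors with tyrosine-based signalling motifs, 6 of 33 rose and 13 fell, of which 5 and 4 held. Slamf8, a SLAM-family receptor of activated myeloid cells, was at 125 and 190.2 in the wild type and 9.66 and 17.4 CPM in the knockout (log2 -3.55, SE 0.34, edgeR adjusted p = 0.00215). The paired receptors Pilra and Pilrb1 were at 178 and 266 and 28.6 and 44.6 CPM in the wild type against 27.1 and 20.4 and 3.34 and 4.06 in the knockout (log2 -3.22 and -3.31). In contrast Fcgrt, the neonatal Fc receptor that recycles IgG, rose from 32.4 and 18.8 to 119.5 and 114 CPM (log2 2.19, SE 0.25, edgeR adjusted p = 0.00383), and Fcrls, an Fc-receptor-like gene of resident macrophages, from 2.79 and 1.33 to 25.3 and 14.6 (log2 3.26). The signal-regulatory genes Sirpb1a, Sirpb1b and Sirpb1c rose together, with log2 fold changes of 2.90, 2.67 and 2.94. These are near-identical copies whose reads the authors' counting may have split or shared, so they count as uncertain, and so does Pira2 (log2 -2.62).

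Receptors and bridging proteins for apoptotic cells leaned up, with 8 of 18 called higher and 2 lower (median log2 0.72), of which 3 and 1 held. Itgb5, the integrin chain that binds bridged apoptotic cells, was at 72.4 and 50.8 CPM in the wild-type libraries and 362 and 342 in the knockout libraries (log2 2.52, SE 0.20, edgeR adjusted p = 0.00125). Havcr2 (TIM-3) was at 10.1 and 6.1 against 61.03 and 41.3 CPM (log2 2.65, SE 0.30, edgeR adjusted p = 0.00353). The 2 groups are well apart for both. Timd4 (TIM-4), the phosphatidylserine receptor of resident peritoneal macrophages, went down from a low level, 2.44 and 2.73 to 0.0996 and 0.167 CPM (log2 -4.22, SE 0.46, edgeR adjusted p = 0.0031). Gas6, the ligand that bridges phosphatidylserine to the receptors Axl and Mertk, rose from 88.8 and 36.4 to 479 and 358 CPM (log2 2.74) and lost its call without knockout library 1 (edgeR adjusted p = 0.0702). Complement C1qa and C1qc were called higher (log2 0.85 and 0.92) with adjusted p = 0.206 and 0.172 in edgeR without knockout library 1 and 0.183 and 0.208 without knockout library 2.

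Of 31 adhesion receptors and integrins, 7 rose and 9 fell, of which 3 and 3 held. The leukocyte adhesion ligands went down: Icam1 was at 683 and 613 against 43.2 and 51.1 CPM (log2 -3.78, SE 0.17, edgeR adjusted p = 0.000438) and Vcam1 at 284 and 267 against 64.2 and 35.5 (log2 -2.46, SE 0.28, edgeR adjusted p = 0.00376). Itgal, the LFA-1 chain that binds Icam1, was at 185 and 213 against 95.2 and 56.2 CPM (log2 -1.39). The laminin-binding chain Itga6 rose from 82.8 and 71.8 to 299.8 and 264 CPM (log2 1.87, SE 0.14, edgeR adjusted p = 0.00118), and Cd93, a lectin-like receptor of myeloid and endothelial cells, from 228 and 138 to 676 and 904 (log2 2.11, SE 0.29, edgeR adjusted p = 0.00601). None of these 5, picked by call or small p, overlapped between genotypes.

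Chemokine receptors gave 5 rises and 2 falls among 11 tested. Cxcr4, the receptor for CXCL12, was at 14.1 and 5.15 CPM in the wild-type libraries and 106 and 157 in the knockout libraries (log2 3.76, SE 0.47, edgeR adjusted p = 0.00451). It was called without each library in turn, as were Cx3cr1 and Cxcr3 above. Ccrl2 went the other way, from 587 and 422 to 23.1 and 34.5 CPM (log2 -4.13, SE 0.28, edgeR adjusted p = 0.000858). Ccr1 also rose, from 55.5 and 83 to 210.4 and 156 CPM, with the call lost without knockout library 1 (edgeR adjusted p = 0.0836). Ccr2, the receptor of classical monocytes, chosen after its values were seen, was low, at 0.0594 and 0.508 against 0.598 and 3 CPM, and was not called (edgeR adjusted p = 0.114).

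G-protein coupled receptors for lipids, nucleotides and metabolites held 14 rises and 13 falls among 42, and 9 and 10 of these were called without each library in turn. Gpr84, which senses medium-chain fatty acids, was at 130.3 and 129.5 CPM in the wild-type libraries and 2.84 and 2.11 in the knockout libraries (log2 -5.70, SE 0.18, edgeR adjusted p = 0.00025). Adora2a, a receptor for adenosine, was at 79.7 and 85.2 against 0.797 and 1.83 CPM (log2 -5.98, SE 0.31, edgeR adjusted p = 0.000479). The formyl peptide receptors Fpr1 and Fpr2 were at 367 and 488 and 301 and 440.4 CPM in the wild type and at 33.3 and 36.8 and 8.82 and 7.28 in the knockout (log2 -3.61 and -5.52), and Adgre4, an adhesion receptor, was at 66.8 and 42.9 against 0.698 and 1.33. Each of these falls exceeds the gap between replicate libraries many times over. On the other side, P2ry12, an ADP receptor known from microglia and platelets, was at 1.84 and 2.22 CPM in the wild-type libraries and 24.4 and 20.7 in the knockout libraries (log2 3.47, SE 0.21, edgeR adjusted p = 0.000633). F2r, the thrombin receptor PAR1, rose from 13.6 and 17.99 to 113 and 86.2 CPM (log2 2.66), and Lpar6, a lysophosphatidic acid receptor, from 5.94 and 6.99 to 35.97 and 38.5 (log2 2.52). Prostanoid receptors divided: Ptger2, for prostaglandin E2, rose from 4.51 and 3.43 to 23.5 and 22.2 CPM (log2 2.52), whereas Ptgir, for prostacyclin, fell from 35.9 and 33.8 to 7.47 and 8.39 (log2 -2.14).

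Of 56 cytokine and growth factor receptors, 11 rose and 21 fell, of which 1 and 7 held. Il21r was the rise with the smallest p, from 2.79 and 2.48 to 23.7 and 26.9 CPM (log2 3.26, SE 0.18, edgeR adjusted p = 0.000567). Receptors of the tumour necrosis factor family went down, among them Cd40, the costimulatory receptor, at 53.5 and 76.1 against 3.39 and 2.56 CPM (log2 -4.44, SE 0.25, edgeR adjusted p = 0.000567), the death receptor Fas at 63.1 and 61.4 against 12.8 and 9.06 (log2 -2.50) and Tnfrsf14 at 45.03 and 40.4 against 7.57 and 10.9 (log2 -2.21). None of the 3 overlapped between genotypes. Csf2rb, the shared chain of the GM-CSF, IL-3 and IL-5 receptors, was at 676 and 631 against 227 and 250 CPM (log2 -1.46), and Nrp2, a semaphorin and VEGF receptor, at 1204 and 1114 against 285 and 325 (log2 -1.93). Il2rg, the common gamma chain, was at 117 and 143 against 13.1 and 26.9 CPM, the knockout libraries differing from each other by more than the wild-type ones (log2 -2.70). The family is not uniform, since Tnfrsf11a (RANK) rose from 43.1 and 35.5 to 83.3 and 73.2 CPM, a call lost without knockout library 1 (edgeR adjusted p = 0.0702).

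Pattern recognition receptors fell more often than they rose, 12 against 7 of 23, of which 6 and 1 held. Cd14, the lipopolysaccharide co-receptor, was at 727 and 967 CPM in the wild-type libraries and 77.4 and 90.6 in the knockout libraries (log2 -3.33, SE 0.21, edgeR adjusted p = 0.000758). Tlr2, for bacterial lipoproteins, was at 488 and 461 against 39.2 and 51.2 CPM (log2 -3.39, SE 0.18, edgeR adjusted p = 0.000513), and its partner Tlr1 at 219.5 and 200.3 against 47.5 and 72.5 (log2 -1.81). The cytosolic sensors Nlrp3, Nod2 and Ifih1 were lower too, with log2 fold changes of -3.18, -2.98 and -1.73. Tlr5, the flagellin receptor, was higher, at 0.951 and 1.02 against 6.23 and 6.33 CPM (log2 2.67, SE 0.27, edgeR adjusted p = 0.00236). Antigen presentation and costimulation showed the same mixture, 8 of 24 lower and 4 higher, of which 4 and 1 held. Tnfsf9, the ligand of 4-1BB, was at 105 and 100.1 against 2.44 and 2.72 CPM (log2 -5.31, SE 0.14, edgeR adjusted p = 0.00025), and Icosl at 57.3 and 37.6 against 7.82 and 9.45 (log2 -2.46). Vsir (VISTA), an inhibitory receptor of myeloid cells, rose from 198 and 137 to 607 and 709 CPM (log2 1.97, SE 0.22, edgeR adjusted p = 0.00333), while Cd274 (PD-L1) was at 461 and 1176 against 46.2 and 62.8 (log2 -3.91), its call lost without knockout library 1 (edgeR adjusted p = 0.0625).

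**Figure D2:**
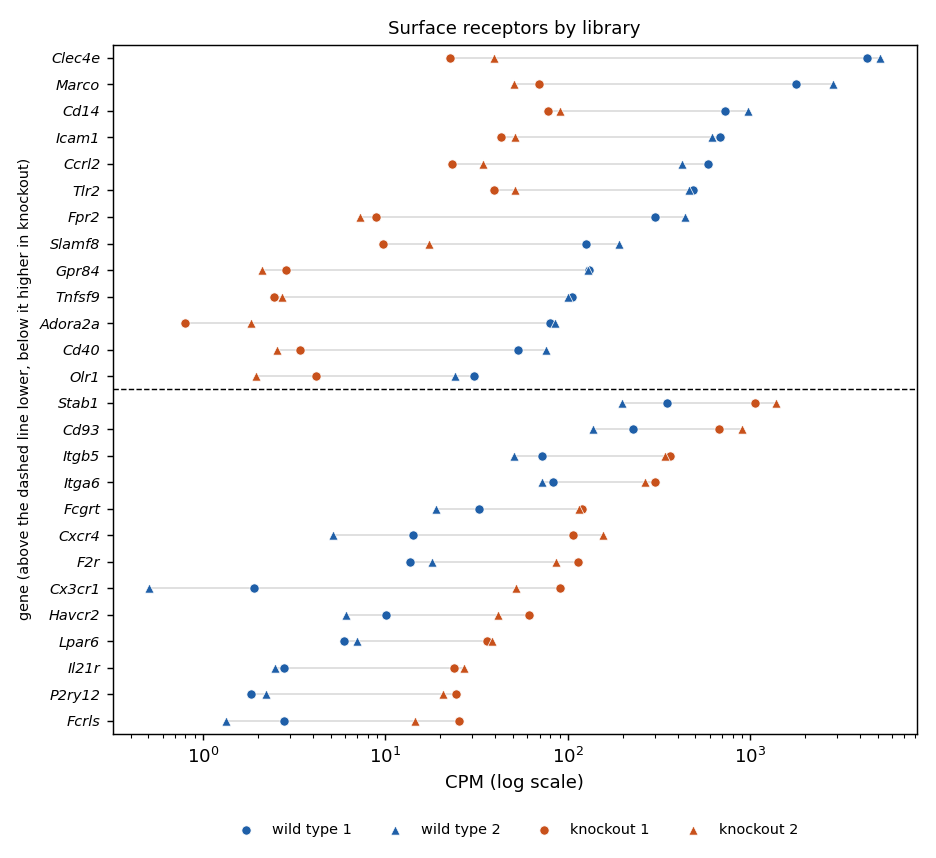
Levels of 26 receptor genes in each library (CPM, log axis), blue for wild type and orange for knockout, circles for library 1 and triangles for library 2, ordered by mean level within each direction. In every gene shown, chosen after the values were seen, the genotypes do not overlap; Clec4e lies at 4369 and 5145 against 22.7 and 39.6 CPM and Cx3cr1 at 1.9 and 0.508 against 90.3 and 52.2.

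Transcription factors, listed together with genes of the glucocorticoid response, also moved both ways. Of 150 tested members of 6 lists, 42 rose (28%) and 36 fell (24%), against 13.1% and 13.3% of all tested genes, with a median log2 fold change of 0.16. The glucocorticoid-response list holds genes that are not transcription factors, such as Fkbp5 and Cd163. Cd163 is the targeted gene, and its fall is counted here. Only 9 of the rises and 13 of the falls were called without each library in turn, and with 1 library left out 10 to 39 rose and 14 to 40 fell, the fewest without knockout library 1. Of 36 factors of the macrophage lineage, 13 rose and 13 fell, of which 4 and 3 held. Cebpa, a factor of myeloid differentiation, was at 52.7 and 42.96 CPM in the wild-type libraries and 183 and 177 in the knockout libraries (log2 1.91, SE 0.14, edgeR adjusted p = 0.00113). Its relative Cebpb, a factor of inflammatory activation, moved the other way, at 184 and 214 against 80.9 and 70.1 CPM (log2 -1.40, SE 0.14, edgeR adjusted p = 0.00259). Maf (c-MAF), known for driving IL-10 and resident macrophage genes, was at 185 and 179 against 481 and 566 CPM (log2 1.52, SE 0.15, edgeR adjusted p = 0.00222), and Fli1 at 37.01 and 28.5 against 70.5 and 78.5 (log2 1.18). Cebpa and Cebpb thus differed in direction, with no overlap of the genotypes. Gata6, the factor of large resident peritoneal macrophages that is also expressed in mesothelium, was at 29.8 and 31.3 against 71.9 and 60.9 CPM (log2 1.12, SE 0.13, edgeR adjusted p = 0.00388). Its source was not tested. Ets2, an effector of CSF1 signalling, was at 211 and 189.5 against 33.5 and 32.9 CPM (log2 -2.59, SE 0.13, edgeR adjusted p = 0.000438), and Spic, the factor of iron-recycling macrophages, at 14.1 and 14.9 against 1.45 and 3.33 (log2 -2.61). Spi1 (PU.1), the master factor of the lineage, was at 407 and 378 against 210.2 and 214 CPM (log2 -0.89) and lost its call without knockout library 1 or 2 (edgeR adjusted p = 0.091 and 0.0673).

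Targets of the glucocorticoid receptor did not move as 1 group, in cells that all received dexamethasone. Of 40 tested nuclear receptors and glucocorticoid-response genes, 11 rose and 10 fell (median log2 0.38), of which 2 and 2 held. Tsc22d3 (GILZ), an anti-inflammatory mediator of glucocorticoids, was at 112 and 110.2 CPM in the wild-type libraries and 262 and 278 in the knockout libraries (log2 1.28, SE 0.12, edgeR adjusted p = 0.00199). Zbtb16 (PLZF), a strongly induced target in many cell types, was at 1.37 and 2.67 against 13.4 and 16.9 CPM (log2 2.91, SE 0.33, edgeR adjusted p = 0.00364), and Fkbp5, a chaperone that feeds back on the receptor, at 138 and 102 against 352 and 308 (log2 1.46; lost without knockout library 1, edgeR adjusted p = 0.0547). The groups do not overlap for any of the 3. The receptor gene itself, Nr3c1, was lower, at 204 and 254 against 88.5 and 93.9 CPM (log2 -1.33; adjusted p = 0.0547 in edgeR without knockout library 1). Other targets fell. Nfkbia, an NF-kappaB inhibitor that glucocorticoids can induce, was at 479.5 and 542 against 48.2 and 50.9 CPM (log2 -3.37, SE 0.15, edgeR adjusted p = 0.000438). The phosphatase gene Dusp1 was at 268 and 418 against 210.3 and 167 CPM (log2 -0.86), a call lost without wild-type library 2 or knockout library 1 or 2 (edgeR adjusted p = 0.0722, 0.144 and 0.223). Sgk1 and Per1, chosen after their values were seen because both are well known targets, were at 470.3 and 362 against 307 and 252 and 48.4 and 45.6 against 52.3 and 62.2 CPM and were not called (edgeR adjusted p = 0.0695 and 0.159). Cd163, a member of the list, is the targeted gene.

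Of 17 clock factors, 6 rose and 2 fell, of which 2 and 0 held. Dbp and Tef, output factors of the clock, were at 1.31 and 0.953 and 18.1 and 14.6 CPM in the wild type and 5.88 and 8.61 and 37.3 and 38.2 in the knockout (log2 2.67 and 1.21). The hour of harvest is not in the labels used here.

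Signal-dependent factors were mostly lower where they were called. Of 26 immediate early and AP-1 genes, 6 fell and 3 rose (median log2 -0.17, but 0.00061 with library size alone), of which 5 and 0 held. Junb was at 207 and 210 CPM in the wild-type libraries and 73.3 and 68 in the knockout libraries (log2 -1.56, SE 0.12, edgeR adjusted p = 0.00115). Maff, a small MAF protein, was at 63.99 and 49.5 against 10.8 and 9.56 CPM (log2 -2.48, SE 0.18, edgeR adjusted p = 0.00102), and Fosl2 at 135 and 146 against 73.3 and 63.2 (log2 -1.04). Klf4 went up, from 6.77 and 9.28 to 36.6 and 22.3 CPM (log2 1.88), with adjusted p = 0.051 in edgeR without knockout library 1. Of 25 IRF, STAT and related genes, 8 fell and 4 rose, of which 3 and 1 held. Irf1, the factor induced by interferon gamma and NF-kappaB, was at 179 and 291 against 28.9 and 31.8 CPM (log2 -2.95, SE 0.25, edgeR adjusted p = 0.00156), Bcl3, an NF-kappaB co-factor, at 54.01 and 72.9 against 17.3 and 22.4 (log2 -1.67) and Prdm1 (BLIMP-1) at 42.7 and 32.9 against 10.6 and 13.9 (log2 -1.63). Nfatc2, a calcium-responsive factor, was higher, at 6.18 and 4.32 against 30.5 and 41.6 CPM (log2 2.77, SE 0.25, edgeR adjusted p = 0.00175).

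**Figure D3:**
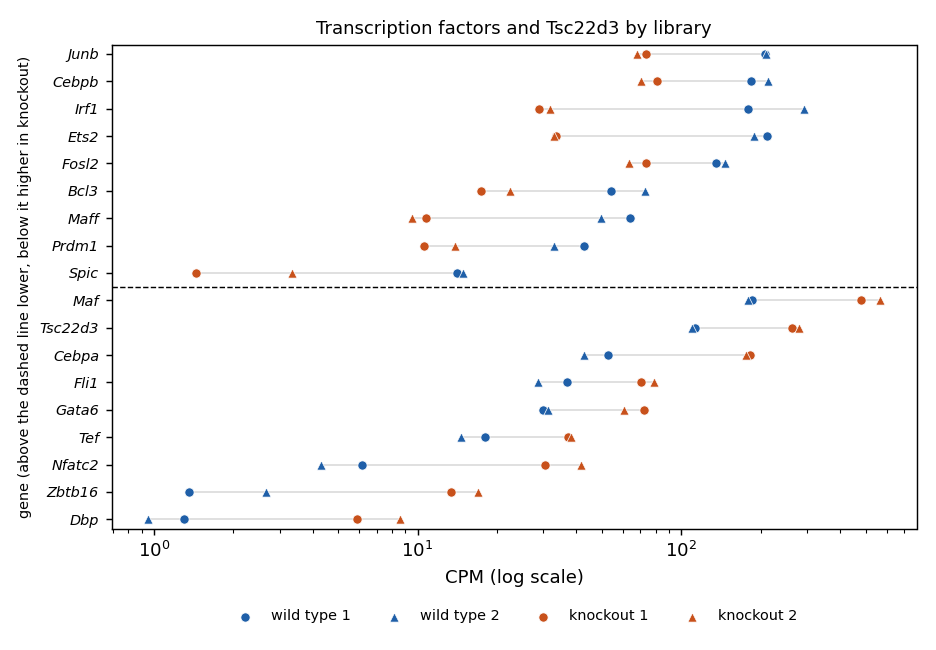
Levels of 17 transcription factor genes and of Tsc22d3 in each library (CPM, log axis), blue for wild type and orange for knockout, circles for library 1 and triangles for library 2. Genes above the dashed line are lower in the knockout, such as Irf1 (179 and 291 against 28.9 and 31.8 CPM), and those below it higher, such as Maf (185 and 179 against 481 and 566 CPM); they were chosen after the values were seen.

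Metabolic genes fell more often than they rose, though this lean depends on the scaling. Of 376 tested members of 13 lists, 42 rose (11.2%) and 87 fell (23.1%), against 13.1% and 13.3% of all tested genes, with a median log2 fold change of -0.15. With library size alone 56 rose and 58 fell, with a median of 0.031. With 1 library left out 6 to 55 rose and 21 to 98 fell, the fewest without knockout library 1. Of 35 genes of glycolysis and the pentose phosphate pathway, 15 fell, 2 rose and 18 were not called. The 15 falls became 9 with upper-quartile scaling, 8 with library size alone and 5 without knockout library 1 or knockout library 2, and 5 held. Slc2a6, a glucose transporter family member of activated macrophages, was at 146 and 149.6 CPM in the wild-type libraries and 7.17 and 7.56 in the knockout libraries (log2 -4.33, SE 0.13, edgeR adjusted p = 0.00025). The main transporter Slc2a1 (GLUT1) was at 162 and 171 against 76.2 and 68.7 CPM (log2 -1.20, SE 0.12, edgeR adjusted p = 0.00248), the lactate exporter Slc16a3 at 119.9 and 163 against 41.5 and 42.8 (log2 -1.74) and phosphofructokinase Pfkl at 223 and 224 against 103 and 96.4 (log2 -1.17). Replicates of Slc2a6, Slc2a1 and Pfkl lie close together, and none of these 4 genes overlapped between genotypes. Hif1a, the oxygen-sensing factor that drives glycolysis, was at 323 and 474 against 142 and 156 CPM (log2 -1.42), a call lost without knockout library 1 or 2 (edgeR adjusted p = 0.0861 and 0.0568).

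Respiratory genes held few calls. Of 27 genes of the citric acid cycle 2 rose and 3 fell, of 44 nuclear genes of oxidative phosphorylation 3 fell and 0 rose, and of 13 mitochondrially encoded transcripts 0 were called, at 26.4% called among all tested genes. Of the mitochondrial transcripts 0 had an unadjusted p under 0.05 in edgeR, and DESeq2 and limma-voom called 0. Medians were -0.13, -0.18 and -0.17 on the log2 scale. With library size alone they were 0.048, -0.00076 and 0.0076. Cycs (cytochrome c) was the nuclear respiratory gene with the smallest p, at 115 and 142 against 55.9 and 64 CPM (log2 -1.10; adjusted p = 0.0704 in edgeR without knockout library 1). The complex I transcript mt-Nd1 was at 3576 and 2938 against 2676 and 2871 CPM and was not called (log2 -0.23, SE 0.22, edgeR adjusted p = 0.472).

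Lipid genes showed individual shifts. Of 39 genes of fatty acid uptake, storage and oxidation, 7 rose and 9 fell, of which 1 and 3 held. Fabp3, a fatty acid carrier, was at 57.8 and 83.5 CPM in the wild-type libraries and 4.43 and 4.17 in the knockout libraries (log2 -4.04, SE 0.23, edgeR adjusted p = 0.000567), and the acyl-CoA synthetase Acsl1, which inflammatory stimuli induce, at 318 and 566 against 51.9 and 56.3 CPM (log2 -3.03, SE 0.29, edgeR adjusted p = 0.00216). Pnpla2 (ATGL), the triglyceride lipase, was higher, at 85.97 and 68 against 170 and 209 CPM (log2 1.30, SE 0.17, edgeR adjusted p = 0.00557), as was Lpin1, a phosphatidate phosphatase, at 14.9 and 10.7 against 49.7 and 64.3 (log2 2.15, SE 0.21, edgeR adjusted p = 0.00236). Cholesterol genes leaned down, with 15 of 37 lower and 3 higher (median log2 -0.46). Ch25h, the 25-hydroxylase that interferon and lipopolysaccharide induce, was at 18.2 and 22.4 against 1.15 and 0.5 CPM (log2 -4.59, SE 0.35, edgeR adjusted p = 0.00116). Of the synthesis pathway, Mvd was at 62.7 and 61.7 against 33.6 and 32.3 CPM and Hsd17b7 at 61.7 and 60.6 against 31.4 and 22.3 (log2 -0.92 and -1.19). Of the 15 falls on this list, 3 were called without each library in turn.

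Arginine, nitric oxide and itaconate genes gave 8 falls and 4 rises among 19, of which 2 and 1 held. Arg1, the arginase of alternatively activated macrophages, was at 89.8 and 84.8 CPM in the wild-type libraries and 182 and 191 in the knockout libraries (log2 1.09, SE 0.12, edgeR adjusted p = 0.00296). Gch1, which makes the cofactor of nitric oxide synthase, was at 92.2 and 75.2 against 16.8 and 14.3 CPM (log2 -2.43, SE 0.16, edgeR adjusted p = 0.000809), and Acod1 fell as described above. Slc7a2, the inducible arginine transporter, was at 271 and 805 against 54.8 and 41.8 CPM (log2 -3.48), lost without knockout library 1 or 2 (edgeR adjusted p = 0.076 and 0.0692). Nos2, the inducible nitric oxide synthase, chosen after its values were seen, shows how far the wild-type libraries can disagree: it was at 1.25 and 107 CPM there and had 0 counts in both knockout libraries, and it was not called (edgeR adjusted p = 0.0651).

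Redox and iron genes were mostly lower where called. Of 32 genes of the NRF2 and glutathione group, 10 fell and 2 rose, though the median was -0.12 and turned to 0.055 with library size alone, and 3 and 1 held. Slc7a11, the cystine importer, was at 433 and 636 CPM in the wild-type libraries and 14.3 and 13.8 in the knockout libraries (log2 -5.24, SE 0.24, edgeR adjusted p = 0.000438). Sod2, the mitochondrial superoxide dismutase and an NF-kappaB target, was at 1379 and 1804 against 74.8 and 93.7 CPM (log2 -4.24, SE 0.24, edgeR adjusted p = 0.000567), and thioredoxin, Txn1, at 391 and 411 against 180.2 and 158 (log2 -1.25). All 3 were lower in both knockout libraries. Gpx3, a secreted glutathione peroxidase, was higher, at 26.2 and 15.8 against 72.7 and 125 CPM (log2 2.23, SE 0.34, edgeR adjusted p = 0.00808). Of 27 genes of haem and iron handling, 11 fell and 3 rose, of which 4 and 0 held. Slc11a2 (DMT1), which moves iron out of endosomes, was at 204 and 223 against 50.02 and 59.8 CPM (log2 -1.96, SE 0.14, edgeR adjusted p = 0.00107), the metalloreductase Steap4 at 108 and 138 against 35.6 and 38.6 (log2 -1.73) and Alas1, the first enzyme of haem synthesis, at 192 and 223 against 85.04 and 76.3 (log2 -1.36). Hp, haptoglobin, whose complex with haemoglobin is the ligand of CD163, was at 316 and 1283 against 15.4 and 26.4 CPM (log2 -5.26), a call lost without knockout library 1 (edgeR adjusted p = 0.0777).

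Prostaglandin synthesis changed enzyme by enzyme. Of 21 genes of eicosanoid synthesis, 10 rose and 4 fell, against 13.1% and 13.3% of all tested genes. The 10 rises became 1 without knockout library 1 and 2 without knockout library 2, the 4 falls became 1 and 2, and 1 call in each direction held. With library size alone 2 fell. Ptgs1, the constitutive cyclooxygenase, was at 9.03 and 7.18 CPM in the wild-type libraries and 55.05 and 56.2 in the knockout libraries (log2 2.78, SE 0.16, edgeR adjusted p = 0.000567). Ptgs2, the inducible one, was at 72.1 and 206 against 5.28 and 3.5 CPM (log2 -4.98, SE 0.57, edgeR adjusted p = 0.00373), and Ptges, the prostaglandin E synthase usually coupled to it, at 283 and 954 against 17.8 and 11.2 (log2 -5.41; adjusted p = 0.0527 in edgeR without knockout library 1). The cyclooxygenase genes thus differed in direction, Ptgs1 higher and Ptgs2 lower in both knockout libraries. Of 30 tested amino acid transport and one-carbon genes, 1 rose (3.33%) and 3 fell (10%). Of 40 tested lysosomal genes, 6 rose (15%) and 4 fell (10%), near the 13.1% and 13.3% of all tested genes. None of the lysosomal calls held without each library in turn. Lgmn, a lysosomal protease, was at 1175 and 829 against 2410.1 and 2780.4 CPM (log2 1.37; lost without knockout library 1 or 2, edgeR adjusted p = 0.0848 and 0.0866).

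**Figure D4:**
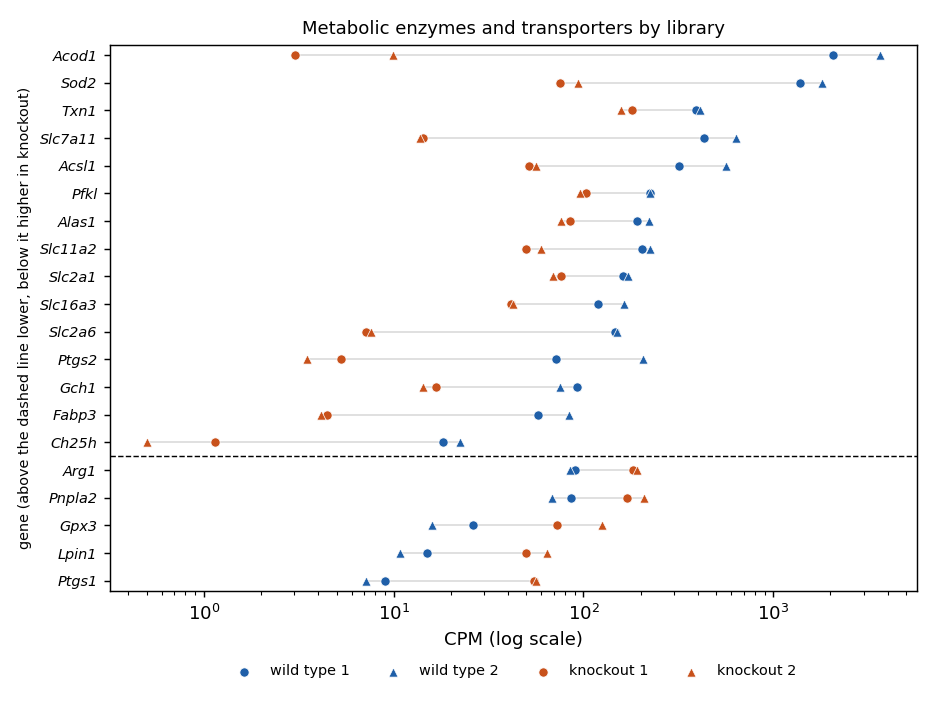
Levels of 20 metabolic genes in each library (CPM, log axis), blue for wild type and orange for knockout, circles for library 1 and triangles for library 2, chosen after the values were seen. Above the dashed line, Acod1 spans 2067 and 3644 to 3.04 and 9.95 CPM and Slc2a6 146 and 149.6 to 7.17 and 7.56; below it, Ptgs1 spans 9.03 and 7.18 to 55.05 and 56.2.

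These shifts stood beside a fall of the inflammatory lists, where 13.1% of all tested genes rose and 13.3% fell. Of 34 tested cytokines and chemokines 24 fell and 1 rose (median log2 -4.54), of 18 NF-kappaB subunits and inhibitors 17 fell and 0 rose (median -2.29), and of 48 interferon-stimulated genes 30 fell and 0 rose (median -2.04). The last count moved from 9 to 44 with 1 library left out, with 9 falls without knockout library 2, 11 without knockout library 1 and 44 without wild-type library 1, and 8 of the 30 held. Of the other falls, 18 of 24 and 15 of 17 held. Gbp5, an interferon-inducible GTPase, was at 274 and 893 CPM in the wild-type libraries and 4.68 and 5.78 in the knockout libraries, so wild-type library 2 was well above wild-type library 1. That library stood higher in several inducible genes chosen after their values were seen. Saa3, an acute-phase protein, was at 3635 and 12462 CPM in the wild-type libraries and 50.5 and 77.8 in the knockout libraries (log2 -6.97), and the chemokine Cxcl9 at 1.66 and 123 against 0.399 and 0.445 CPM, not called (edgeR adjusted p = 0.0509). Il10 was at 11.8 and 62.5 against 1.15 and 1.95 CPM (log2 -4.59, edgeR adjusted p = 0.0155). Without knockout library 1 the calls of Saa3 and Il10 were lost (edgeR adjusted p = 0.0537 and 0.129), and that of Il10 also without knockout library 2 (0.0875).

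Transcripts of stromal cells were present in all 4 libraries and higher in the knockout ones. Of 59 tested markers of mesothelium, fibroblasts with matrix, and smooth muscle or myofibroblasts, 34 rose (57.6%) and 2 fell (3.39%), with a median log2 of 1.27. Of all tested genes 13.1% rose and 13.3% fell, and the stromal lists below stand against the same shares. Of the stromal rises, 14 were called without each library in turn. With 1 library left out 14 to 40 rose and 0 to 2 fell, 14 of them without knockout library 1. The 64 markers together held 0.778% and 1.01% of the counts in the wild-type libraries and 2.02% and 1.48% in the knockout libraries. More cells of a type and more RNA per cell cannot be told apart in such bulk libraries, and macrophages themselves express some of these genes.

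Mesothelial markers summed to 303 and 222 CPM in the wild type and 663 and 498 in the knockout, with 10 of 19 called higher and 1 lower, of which 2 and 0 held. Podxl, a surface sialomucin, was at 4.63 and 5.4 CPM in the wild-type libraries and 17.2 and 25.3 in the knockout libraries (log2 2.08, SE 0.24, edgeR adjusted p = 0.00383), and Bnc1, a mesothelial transcription factor, at 9.21 and 7.88 against 40.5 and 24.9 CPM (log2 1.94, SE 0.26, edgeR adjusted p = 0.00585). The uroplakin Upk1b was at 30.9 and 14.1 against 113 and 80.3 CPM and Lrrn4 at 10.9 and 4.38 against 44.8 and 40.2. The groups do not overlap, but both calls were lost without knockout library 1 (edgeR adjusted p = 0.0963 and 0.0711). Msln, mesothelin, was at 9.15 and 3.75 against 22.1 and 9.56 CPM, with the groups just apart, and was not called (edgeR adjusted p = 0.121). Wt1, the factor of mesothelium and its derivatives, was at 27.98 and 29.3 against 49.97 and 50.7 CPM (log2 0.81), lost without knockout library 1 or 2 (edgeR adjusted p = 0.0598 and 0.051). Slpi, a protease inhibitor that inflamed cells also make, was the member that fell, at 19.1 and 47.4 against 11.1 and 8.89 CPM (edgeR adjusted p = 0.145 and 0.157 without knockout library 1 or 2).

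Fibroblast and matrix markers summed to 7479 and 9908 CPM in the wild type and 16686 and 12784 in the knockout, with 17 of 29 called higher and 1 lower, of which 7 and 0 held. Col6a1 and Col6a2, chains of collagen VI, were at 127 and 133 and 70.4 and 78.5 CPM in the wild type and 325 and 326 and 216 and 223 in the knockout, with replicates that nearly coincide (log2 1.32, SE 0.12, edgeR adjusted p = 0.00192 for Col6a1). Col3a1, of fibrillar collagen III, was at 215 and 242 CPM in the wild-type libraries and 1450.3 and 718 in the knockout libraries (log2 2.25, SE 0.34, edgeR adjusted p = 0.00822), and Fbln2 at 69.3 and 95.3 against 666 and 412 CPM (log2 2.71, SE 0.29, edgeR adjusted p = 0.00293). Knockout library 1 was well above library 2 in both, as it was for Mgp, a mineralisation inhibitor, at 4.87 and 2.54 against 77.7 and 25.3 CPM (log2 3.79). Postn and Lum, matrix proteins of fibroblasts, rose by 2.02 and 2.29 on the log2 scale. Fn1 (fibronectin), the highest member and one that macrophages make, was at 3669 and 4421 against 4726 and 4761 CPM and was not called (edgeR adjusted p = 0.507). Pdgfra, the fibroblast receptor for platelet-derived growth factor, was the exception, at 226 and 356 against 112 and 122 CPM (log2 -1.32), a fall lost without knockout library 1 or 2 (edgeR adjusted p = 0.11 and 0.0735).

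Smooth muscle and myofibroblast markers summed to 502 and 574 CPM against 1404 and 905, with 7 of 11 called higher and 0 lower, and 5 held. Acta2, smooth muscle actin, was at 170.1 and 219 CPM in the wild-type libraries and 687 and 404 in the knockout libraries (log2 1.49; lost without knockout library 1, edgeR adjusted p = 0.0756). Myl9, Cnn1, Lmod1, Actg2 and Tpm2, proteins of the contractile apparatus, rose by 3.01, 3.58, 3.63, 3.50 and 1.85 on the log2 scale. Tagln and Myh11, a defining pair of mature smooth muscle, were low, at 1.13 and 0.826 against 1.99 and 1.67 and 1.6 and 0.89 against 4.08 and 1.22 CPM and were not called (edgeR adjusted p = 0.115 and 0.247). Stromal transcription factors followed, with 13 of 23 higher and 0 lower, of which 1 call, that of Gata6, held without each library in turn. Osr1, a fibroblast factor, was at 1.9 and 2.54 against 13.3 and 7.95 CPM (log2 2.26; adjusted p = 0.0557 in edgeR without knockout library 1). The part of these cells in the receptor, factor and metabolic results was not tested. For size, the 64 stromal markers made up 2.02% of counts at most. That is the share of these genes and not of all RNA from stromal cells. The same sums in the 6 hearts, scaled as a separate table, were 307 to 347, 5728 to 10488 and 8732 to 11427 CPM. Both knockout libraries lay above every heart for the mesothelial and the fibroblast and matrix lists, and below every heart for the smooth muscle list.

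Marker sums of other cell types varied. Counts of called markers below stand against the 13.1% of all tested genes that rose and the 13.3% that fell. Macrophage markers, at 15.4% in each direction, were near those shares. Dendritic cell markers summed to 453 and 595 CPM in the wild type and 473 and 405 in the knockout. Adipocyte markers summed to 417 and 253.5 against 259 and 280 CPM, with 10 of 12 genes at or under 3 counts in every library. Neutrophil markers summed to 252 and 428 against 112 and 174 CPM. The sums were 41.7 and 28.2 against 25.2 and 67.1 for B cells and 14.5 and 21.9 against 35.8 and 34.3 for T and NK cells. Endothelial markers summed to 30.8 to 43.5 CPM with 0 of 8 called in edgeR, DESeq2 or limma-voom, and 0 at an unadjusted p under 0.05. The T cell genes Cd3d, Cd3e and Cd3g and the B cell gene Ms4a1 were at or under 3 counts in every library, as were the neutrophil genes S100a9, Ly6g and Mpo. Of 5 tested neutrophil markers 4 fell and 1 rose, among them Mmp9, a gelatinase that macrophages also secrete, at 59.7 and 74.9 against 4.63 and 11.1 CPM (log2 -3.11, SE 0.39, edgeR adjusted p = 0.00462), and Mmp8, which rose from 25.7 and 23.5 to 57.7 and 64.8 (log2 1.32). Macrophage markers themselves summed to 37820 and 31729 CPM in the wild type and 28933 and 31124 in the knockout, with 2 of 13 higher and 2 lower, of which 0 and 1 held. Adgre1 (F4/80) was at 952 and 1219 against 645 and 599 CPM (log2 -0.80; lost without knockout library 1 or 2, edgeR adjusted p = 0.16 and 0.167), and Csf1r at 1506 and 1065 against 854 and 944, not called (edgeR adjusted p = 0.133). Of 15 markers of large and small peritoneal macrophages 5 rose and 2 fell, of which 2 and 2 held. F10, coagulation factor X, was at 579 and 863 against 20.2 and 30.9 CPM (log2 -4.82, SE 0.32, edgeR adjusted p = 0.000816), and Folr2, a folate receptor of resident macrophages, at 8.67 and 6.93 against 29.4 and 22.6 (log2 1.74, SE 0.20, edgeR adjusted p = 0.00394). Gata6 and Folr2 were thus higher and Timd4 and F10 lower, all called without each library in turn.

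**Figure D5:**
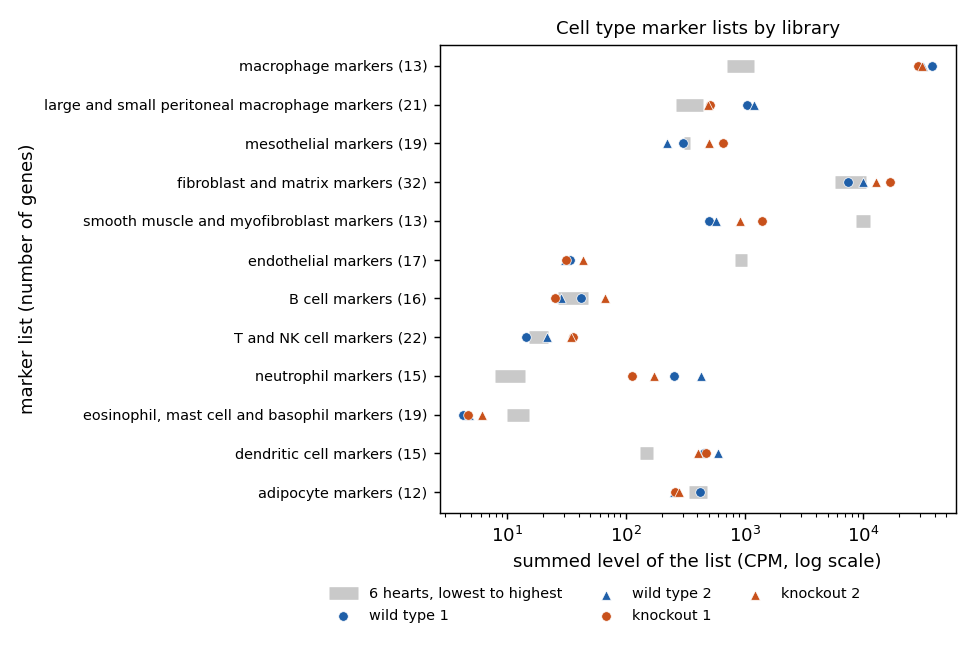
Summed level of each cell type marker list per library (CPM, log axis), with the number of genes in parentheses, blue for wild type, orange for knockout, circles for library 1, triangles for library 2 and grey bars for the range over the 6 hearts, which were scaled as a separate table. The mesothelial sums (303 and 222 against 663 and 498 CPM) and the fibroblast and smooth muscle sums are higher in both knockout libraries. The macrophage sums (37820 and 31729 against 28933 and 31124 CPM) are slightly lower in both. Sums of the large and small peritoneal macrophage list, in which F10 is the largest wild-type member, are lower as well (1054 and 1188 against 512 and 495 CPM).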

How the data were processed

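Gene counts of poly(A) RNA came as whole numbers in 2 deposited tables, hearts and macrophages apart. Per the labels' protocols the library kit was NEBNext Ultra RNA, which does not mark the strand, so reads of overlapping or antisense genes cannot be told apart, and the protocol text says that RNA was purified from livers while no sample here is a liver. The authors aligned with HISAT2 2.2.1 and counted reads per gene, per the submitters' processing notes, with featureCounts, whose version is not given in the sources used here. The labels name both GRCm39 and mm10, so the build behind the counts is not settled; gene coordinates are those of GENCODE M21 on GRCm38, and upstream sequences those of RefSeq on GRCm38.p6. Of 55357 gene identifiers 52081 were named, and 0 columns were left without a sample.

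In R 4.3.3, genes of the 4 macrophage libraries were kept by filterByExpr (edgeR 4.0.16; minimum count 10, minimum total 15), scaled by TMM and compared with edgeR's quasi-likelihood test, with Benjamini-Hochberg adjustment across the 13861 genes that passed. Calls are those with adjusted p under 0.05. Each SE comes from the log2 fold change and the F statistic (size over root F). Lists are described by counts and medians only. Alternatives were other scalings, filters and tests (DESeq2 1.42.0, limma 3.58.1), the replicate number as a block and leaving out each library, which assumes that the remaining library of a genotype spreads like the opposite group. Replicates were distinct libraries: chi-square per degree of freedom between them was 48.4 (wild type) and 19.2 (knockout). The test was also tested on simulated data with 200 genes changed by known folds.

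The members, gene lists and alternatives were chosen with earlier results of these data known. Named genes are Cd163, the 15 largest rises and falls (called, mean of at least 1 CPM, no overlap of groups, unnamed genes and pseudogenes passed over), up to 5 members of each described list with the smallest p, called members, and of cell type lists the first 4 genes and the highest 2. A few genes chosen this way were left out of the text. Others are said to be chosen after their values were seen. Ratios against 1 to 3 counts carry exact 95% binomial intervals, and folds against 0 counts use a floor of 3 counts over the group.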

Additional observations from a re-analysis of the deposited data

How the results depend on the processing

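Across all genes, the count of rises stayed within 1.5 times of 1817 and that of falls within 1.5 times of 1846 under DESeq2 size factors, upper-quartile scaling, no filter, a filter of 1 CPM in both libraries of a group, DESeq2, limma-voom and the replicate block; with library size alone, chosen after seeing the data, 1220 genes fell. Leaving out 1 library gave 360 to 1838 rises and 374 to 1973 falls. Among list members, it gave 31 to 82 rises and 41 to 109 falls of receptors, 10 to 39 and 14 to 40 of transcription factors with glucocorticoid-response genes, 6 to 55 and 21 to 98 of metabolic genes, and 14 to 40 and 0 to 2 of stromal markers. The 2 falls of stromal markers became 1 with limma-voom and 1 with the replicate block. The cause of these changes was not tested, beyond the loss of 1 library. Cd163 stayed called in every alternative, with log2 -5.23 to -4.41 when a library was left out. Of 498 called genes on the lists or among the largest changes, 176 were called in the same direction under every alternative that gave a value. Whether the replicate numbers pair the samples was not settled. The correlation of deviations was -0.113 for the same numbers. With 2 libraries a group, crossed numbers must give the opposite sign, so this value cannot decide it. With the number as a block 1308 genes rose and 1348 fell, and with the numbers crossed, chosen after seeing the data, 2395 and 2200. Depth limits genes near the floor of 0.149 to 0.191 CPM, and with 2 libraries a group the spread of each gene rests on few values.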

Other observations

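Cell division genes, a list outside the groups above, held few calls. Of 45 tested, 6 rose (13.3%, against 13.1% of all tested genes) and 1 fell (median log2 0.60). With 1 library left out the rises ran from 0 without knockout library 1 to 15 without wild-type library 2, and they numbered 10 with library size alone and 25 with no filter. The call made without each library in turn was that of Mki67, the proliferation antigen Ki-67, at 221 and 187 CPM in the wild-type libraries and 88.9 and 64.5 in the knockout libraries (log2 -1.41, SE 0.19, edgeR adjusted p = 0.00579). Ccnd2, cyclin D2, was at 23.5 and 35.6 against 134 and 64.3 CPM (log2 1.75), and Rrm1, a subunit of ribonucleotide reductase, at 77.7 and 89.04 against 205 and 148 (log2 1.08). Knockout library 1 had the higher level of each, and without it both calls were lost (edgeR adjusted p = 0.0942 and 0.0683).

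Genes beside Cd163 on chromosome 6 were also counted. Of 35 tested genes that start within 1 Mb of Cd163, 4 rose and 9 fell (37.1%), and of 107 within 5 Mb, 10 rose and 21 fell (29.0%), against 26.4% of all tested genes.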
